A study of Saccharomyces cerevisiae with 15 samples.

Results

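The hsf1-mC allele of Saccharomyces cerevisiae carries a mutated carboxyl-terminal Hsp70 site in Hsf1, and its transcriptome was set against that of cells with the wild type HSF1 allele. Both strains were untreated, in rich YPD medium at 30 °C, and were harvested in mid-log phase. The comparison used 3 mC libraries and 3 wild type libraries, which are 6 of the 15 libraries in the series, and these 6 were fitted alone. Of 7126 genes in the deposited table, the 6399 with at least 1 FPKM (a read or fragment count scaled by gene length and by library depth) in at least 3 of the 15 libraries were tested. A further 3 libraries carried hsf1-mN, with the amino-terminal Hsp70 site mutated, at the same temperature and in the same medium, and were set against mC in a second comparison. The remaining 6 libraries, from hsf1-mNmC with both sites mutated at 30 °C and from wild type moved to 37 °C for 15 min, entered only the gene filter and alternative fits. The series design calls the replicates biological. The strain background, the way each allele was carried and whether replicates came from separate clones were not given in the labels.

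Hsf1 is the factor that switches on heat shock genes. It binds heat shock elements, which are inverted repeats of the bases GAA and TTC, and in yeast it also drives basal expression of major chaperones. The cytosolic Hsp70 proteins Ssa1 and Ssa2 bind Hsf1 and hold its activity down, and unfolded proteins draw Hsp70 away. A separate pair of stress factors, Msn2 and Msn4, binds the stress response element, whose letters are AGGGG.

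The upstream sequences below are shown because they belong to genes that rose in mC, most of them among the highest increases, and because heat shock or stress response elements can be read in them. Each is the stretch from 350 to 151 bases before the start codon in the R64 reference genome of RefSeq, 5′ to 3′ on the gene's strand. In the first 5, capitals mark every GAANNTTC or TTCNNGAA, a pair of inverted units of a heat shock element. In DDR2 and EGO4, capitals mark AGGGG or CCCCT, the stress response element on either strand. The windows lie at chrXVI:98776-98975 (minus strand), chrV:364239-364438 (plus), chrXV:380703-380902 (plus), chrVII:772104-772303 (plus), chrII:444844-445043 (minus), chrXV:231906-232105 (minus) and chrXIV:692211-692410 (plus).
HSP82: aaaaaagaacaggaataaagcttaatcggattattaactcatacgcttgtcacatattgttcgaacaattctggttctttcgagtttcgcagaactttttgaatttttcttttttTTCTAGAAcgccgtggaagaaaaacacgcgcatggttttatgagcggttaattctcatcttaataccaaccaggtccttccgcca
SSA4: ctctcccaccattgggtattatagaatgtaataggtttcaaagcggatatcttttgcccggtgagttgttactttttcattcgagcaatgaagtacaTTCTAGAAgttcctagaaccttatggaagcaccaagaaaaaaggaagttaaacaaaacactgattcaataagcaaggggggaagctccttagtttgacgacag
STI1: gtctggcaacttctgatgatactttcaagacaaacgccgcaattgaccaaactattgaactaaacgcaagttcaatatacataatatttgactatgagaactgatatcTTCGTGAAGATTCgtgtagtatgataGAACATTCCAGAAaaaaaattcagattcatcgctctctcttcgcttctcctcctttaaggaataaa
BTN2: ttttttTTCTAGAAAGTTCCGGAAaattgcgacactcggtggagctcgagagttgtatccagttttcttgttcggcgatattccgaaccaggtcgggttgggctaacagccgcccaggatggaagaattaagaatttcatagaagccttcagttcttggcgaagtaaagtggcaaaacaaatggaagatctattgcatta
FES1: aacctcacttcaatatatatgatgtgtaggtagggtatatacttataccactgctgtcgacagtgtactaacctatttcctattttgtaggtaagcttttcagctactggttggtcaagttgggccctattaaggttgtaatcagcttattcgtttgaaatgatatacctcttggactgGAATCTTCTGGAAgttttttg
DDR2: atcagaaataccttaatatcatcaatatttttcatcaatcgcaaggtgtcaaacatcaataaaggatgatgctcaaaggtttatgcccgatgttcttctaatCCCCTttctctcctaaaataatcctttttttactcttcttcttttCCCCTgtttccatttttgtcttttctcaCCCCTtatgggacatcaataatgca
EGO4: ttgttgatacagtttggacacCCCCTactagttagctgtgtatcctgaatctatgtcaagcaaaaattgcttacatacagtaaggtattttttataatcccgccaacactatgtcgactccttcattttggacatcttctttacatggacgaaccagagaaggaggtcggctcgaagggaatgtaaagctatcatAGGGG
Overlapping pairs run together in STI1, BTN2 and FES1, and such a run of at least 3 units (GAANNTTCNNGAA or TTCNNGAANNTTC) is called a 3-unit element below. HSP82 and SSA4 held 1 pair each in the stretch shown, both with the same letters.

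Whole reads recovered from the FPKM values numbered 18335488 to 25409519 in the 3 wild type libraries, 20598775 to 21414874 in mC and 20689879 to 23795299 in mN. In these libraries 1 read in 1 kb of gene equalled 0.0394 to 0.0545 FPKM for wild type and mC. Over genes, the mean Spearman correlation within the group was 0.997 for each wild type library and 0.995 to 0.997 for the mC libraries. The mN libraries were less alike, with 0.980 for replicate 1 and 0.988 and 0.989 for the others. Outside the fits described here, the library labelled mNmC replicate 3 correlated at 0.921 with its own group and 0.997 with replicates 1 and 2 at 37 °C, and the library labelled 37 °C replicate 3 at 0.918 with its own group and 0.996 with mNmC replicates 1 and 2. Of the markers of cell type, 8 genes listed for haploid a cells summed to 79.7 to 89.5 FPKM in the wild type and mC libraries. Of this sum, 19.4 to 22.4 FPKM came from AXL1, which was not among the planned markers of a cells. The 6 genes of haploid alpha cells summed to 6818 to 9247 FPKM. The silent-cassette genes HMLALPHA1 and HMLALPHA2 were listed at 0 in all 6 libraries.

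In mC, most Hsf1 target chaperone genes and many general stress genes rose, and most ribosomal protein genes and all histone genes tested fell. Of the 6399 genes tested, 1866 (29.2%) passed the threshold (adjusted p under 0.05, limma with Benjamini-Hochberg adjustment), 1476 of them higher (23.1%) and 390 lower (6.09%). These shares are the background for the counts of all gene lists below. In these bulk libraries a change in every cell and a change in a share of the cells cannot be told apart. Most changes were small. The median size among called genes was 0.31 on the log2(FPKM + 1) scale, with quartiles of 0.23 and 0.42. Changes of at least 0.5 were seen in 221 genes that rose and 57 that fell, and changes of at least 1 in 26 that rose and 2 that fell. All 3 mC libraries were above all 3 wild type libraries in 36.2% of genes and below them in 10.2%, which is the background for statements below that groups did not overlap. Fold changes are given below on this log2 scale, with the standard error of the fit over 3 and 3 libraries after the ± sign.

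The median of all genes lay at 0.09, so small increases are to be read against it. After scaling each library to the same upper quartile, the median was 0.02 and the split of calls changed from 79.1% higher of 1866 to 53.2% higher of 1364, with 726 genes higher (11.3% of those tested) and 638 lower (9.97%). The number of calls also depended on single libraries. It was 776 without wild type replicate 1, 1049 without wild type replicate 2, 988 without wild type replicate 3 and 1110 without mC replicate 2.

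**Figure D1:**
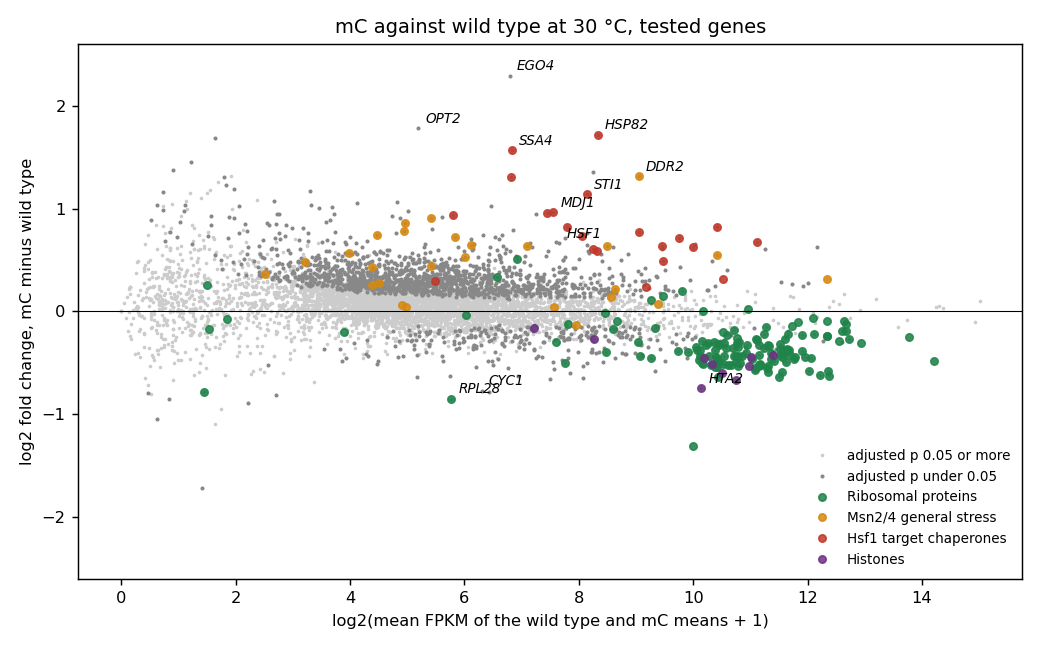
Each point is 1 of the 6399 genes, with the log2 of its mean FPKM plus 1 on the x axis and the log2 fold change of mC minus wild type on the y axis. Coloured points are 4 gene lists, dark grey points passed the threshold of adjusted p 0.05, and light grey points did not; EGO4 lies highest at 2.29, the chaperones lie above 0, and most ribosomal protein genes and all 10 histone genes lie below it.

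HSF1 itself, the gene that carries the mutated site, was higher in mC. Its FPKM covers the whole gene and cannot show the mutation. Its level was 154, 152 and 158 FPKM in the 3 wild type libraries and 261, 230.4 and 247 FPKM in mC. The groups did not overlap, and the change was 0.66 ± 0.05 (adjusted p = 0.000772). HIS3, a gene of histidine synthesis that is also a common selection marker, was highly expressed in all 6 libraries, at 497, 496 and 438 FPKM in wild type and 612, 631 and 592 FPKM in mC. It rose by 0.36 ± 0.06 (adjusted p = 0.00763). CAN1, the arginine permease, rose by 0.31 ± 0.06 but did not pass after upper-quartile scaling. Of the other selection markers tested, LYP1, the lysine permease, changed by 0.08 ± 0.06, TRP1 of tryptophan synthesis by -0.18 ± 0.07, ADE2 of adenine synthesis by -0.10 ± 0.08 and MET17 of methionine synthesis by -0.00 ± 0.05. None of these 4 passed the test. TRP1, whose groups did not overlap, passed after upper-quartile scaling (change -0.26, adjusted p = 0.0208 in limma).

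Of the 21 Hsf1 target chaperones 18 rose and none fell, against a background of 23.1% of all genes higher. Their median change was 0.74, against 0.09 for all genes. The list holds genes known to depend on Hsf1 and was chosen with earlier results of these data known. Summed over its members, it gave 9047 to 9223 FPKM in the wild type libraries and 13847 to 14904 FPKM in mC. Each of the 18 was also called after upper-quartile scaling, and leaving out each library in turn left 18 to 21 called.

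Within this list the Hsp90 machinery had the widest range. HSP82, the heat-inducible Hsp90, stood at 143, 156 and 149 FPKM in wild type and 456, 508 and 516 FPKM in mC. The lowest mC library was well above the highest wild type library, and the change of 1.72 ± 0.06 (adjusted p = 2.23e-05) was the highest of the list. HSC82, the constitutive Hsp90, stood at 656, 644 and 643 FPKM in wild type and 999, 1078 and 1114 FPKM in mC, a change of 0.71 ± 0.05 (adjusted p = 0.000497). The 2 genes are close copies, so reads may have been divided between them in counting, which was not tested. STI1, the cochaperone that bridges Hsp70 and Hsp90, stood at 165, 181 and 177 FPKM in wild type and 386, 386 and 383 FPKM in mC. Its 3 mC values were nearly equal, and it rose by 1.14 ± 0.05 (adjusted p = 4.06e-05). CPR6, a peptidyl-prolyl isomerase of Hsp90, and AHA1, which stimulates its ATPase, rose by 0.61 ± 0.10 and 0.59 ± 0.07. Both were lowest in mC replicate 1 among the mC libraries, at 304 FPKM for CPR6 and 344 FPKM for AHA1, still above all 3 wild type values.

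The Hsp70 system rose as well. SSA4, the heat-inducible cytosolic Hsp70, stood at 55.2, 58.8 and 55.1 FPKM in wild type and 159.8, 176 and 171 FPKM in mC, a change of 1.57 ± 0.05 (adjusted p = 2.23e-05). SSA1 and SSA2, the Hsp70 genes that are abundant without heat, stood far higher per length, at 984 ± 32.0 and 1715 ± 28.6 FPKM in wild type (mean ± SD, n = 3). They rose to 1739 ± 33.6 and 2730.4 ± 44.8 FPKM, changes of 0.82 ± 0.05 and 0.67 ± 0.05, and their groups did not overlap. SSA1 and SSA2 are close copies too, and their split was not tested. Among the factors that work with Hsp70, the J-proteins SIS1 and YDJ1 rose by 0.78 ± 0.05 and 0.63 ± 0.04. The nucleotide exchange factors FES1 and SSE1 rose by 0.82 ± 0.04 and 0.49 ± 0.05. FES1 stood at 156, 159 and 162 FPKM in wild type and 268, 288 and 288 FPKM in mC, so the groups were well apart. APJ1, a J-protein from the list of other Hsp70 partners and nascent chain factors, rose by 0.80 ± 0.06, the largest change of that list. The list did not rise as a whole. Of its 14 members 5 rose and 1 fell, and its median of 0.02 was below the 0.09 of all genes. After upper-quartile scaling 2 rose and 4 fell.

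Disaggregation and sequestration genes followed the same direction. HSP104, the cytosolic disaggregase, rose by 0.74 ± 0.04 and HSP42, a small heat shock protein that gathers misfolded proteins, by 0.96 ± 0.07. BTN2, which sorts misfolded proteins to deposits, stood at 63.5, 62.0 and 64.2 FPKM in wild type and 137, 168 and 171 FPKM in mC and rose by 1.30 ± 0.09 (adjusted p = 0.000396). Its lowest mC value, in replicate 1, was well above the highest wild type value. CUR1, a paralog of BTN2, changed by 0.29 ± 0.10 and did not pass (adjusted p = 0.0648), although its mC values of 41.3, 49.8 and 54.9 FPKM all exceeded the wild type values of 38.9, 37.8 and 41.1.

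In the mitochondrial part of the list, MDJ1, the J-protein of the matrix Hsp70, rose by 0.96 ± 0.07, HSP78, the mitochondrial disaggregase, by 0.93 ± 0.07 and HSP60, the chaperonin, by 0.62 ± 0.05. MDJ1 had its highest mC value, 274.6 FPKM, in replicate 1 and 235 and 232 FPKM in the others. HSP10, the short gene of the HSP60 partner, stood at 1332, 1263 and 1277 FPKM in wild type and 1267, 1786 and 1823 FPKM in mC, and HCH1, a short Hsp90 cochaperone gene, at 529.6, 522 and 536 and 527, 662 and 688. In both, mC replicate 1 lay at the wild type level while replicates 2 and 3 lay above it. Neither passed (adjusted p = 0.121 and 0.111), and both were called higher without mC replicate 1, where all 21 list members were.

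**Figure D2:**
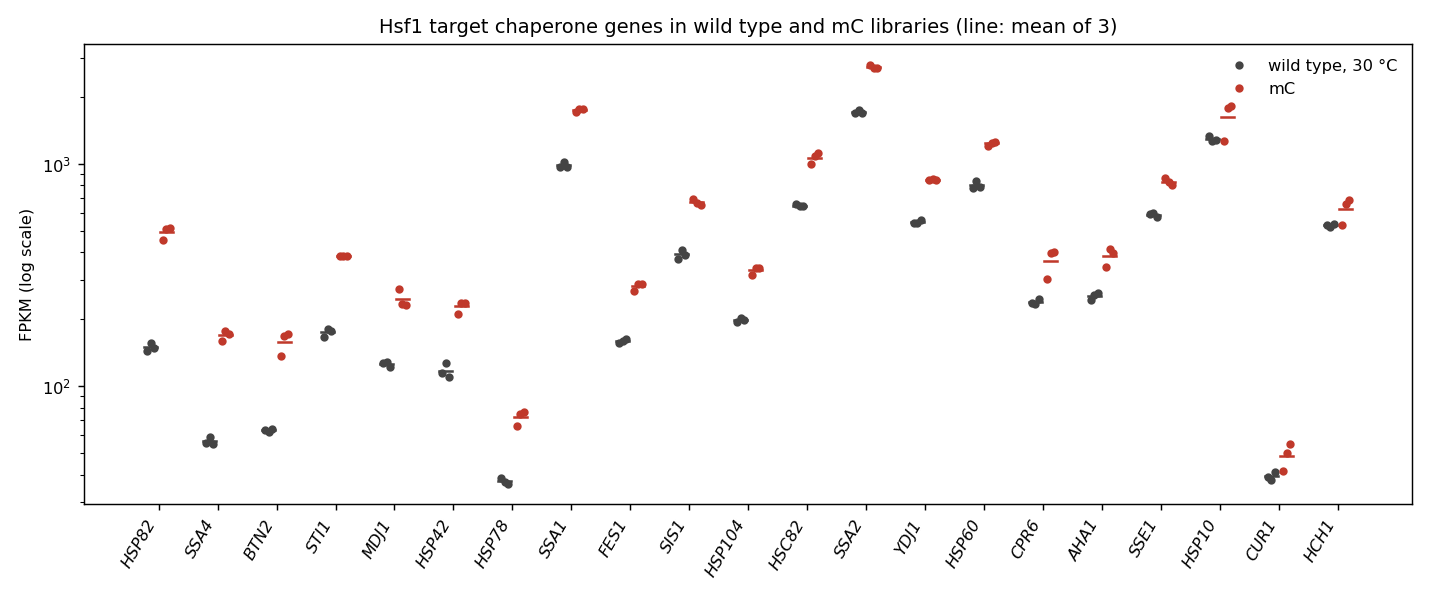
FPKM of the 21 Hsf1 target chaperone genes on a log scale, 1 point per library and a line at the mean of 3, wild type in grey and mC in red. Genes are ordered by fold change from HSP82 (1.72) to HCH1 (0.23); the groups overlap in HSP10 and HCH1 and in no other gene.

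Other protein folding lists had smaller medians. Of 13 mitochondrial chaperones 8 rose and none fell (median 0.25), with SSC1, the matrix Hsp70, at 0.49 ± 0.05. Of 12 Hsp90 cochaperones 6 rose and 1 fell (median 0.22), with CDC37, which brings kinases to Hsp90, at 0.36 ± 0.06. The count of 8 mitochondrial chaperones was 4 to 6 when any 1 library other than mC replicate 1 was left out, and that of 6 cochaperones was 4. After upper-quartile scaling 4 mitochondrial chaperones rose, and 4 cochaperones rose and 2 fell. Of 14 genes of the chaperonin CCT and prefoldin 1 rose and 1 fell (median 0.00). These were the CCT subunit CCT6 at 0.17 ± 0.04 and the prefoldin subunit GIM5 at -0.30 ± 0.08. After upper-quartile scaling CCT6 did not pass, 3 members fell and the median of that list was -0.08. When each library was left out in turn, CCT6 was called in 2 of 6 fits and GIM5 in 3. Of 33 proteasome and ubiquitin genes 14 rose and none fell, with a median of 0.10, close to the 0.09 of all genes. RPN4, the transcription factor of proteasome genes, stood at 46.9, 47.3 and 54.9 FPKM in wild type and 62.0, 78.2 and 86.5 FPKM in mC and rose by 0.59 ± 0.12 (adjusted p = 0.015). RPN10, a ubiquitin receptor of the proteasome, and RPN11, its deubiquitinase, rose by 0.27 ± 0.04 and 0.25 ± 0.05. The proteasome count fell to 6 without mC replicate 2 and without wild type replicates 1 or 2, was 20 without mC replicate 1, and was 6 after upper-quartile scaling. The RPN4 call was lost without mC replicate 2 and without wild type replicates 1 or 2.

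Many genes of the unfolded protein response, which acts in the endoplasmic reticulum, also rose. In this list 13 of 16 were higher and none lower, with a median of 0.31. After upper-quartile scaling 8 of the 16 were higher, and 9 or 10 when any 1 library other than mC replicate 1 was left out. KAR2, the Hsp70 of the endoplasmic reticulum, stood at 792, 803 and 822 FPKM in wild type and 1234, 1266 and 1317 FPKM in mC, a change of 0.66 ± 0.04 (adjusted p = 0.000454). SIL1, its nucleotide exchange factor, rose by 0.60 ± 0.08 and SCJ1, a J-protein, by 0.50 ± 0.05. ULI1, a gene induced by the unfolded protein response, rose by 1.05 ± 0.08, from 10.1, 9.43 and 11.6 FPKM to 22.4, 22.8 and 22.3 FPKM. HAC1, the transcription factor of this response, rose by 0.20 ± 0.05, and did not pass after upper-quartile scaling. It was called in 2 of the 6 fits that left out a library.

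General stress genes formed the next group. Of 26 genes controlled by Msn2 and Msn4, 18 rose and none fell (median 0.46), and of 12 heat genes shared between Hsf1 and Msn2/4, 9 rose and none fell (median 0.44). After upper-quartile scaling 13 and 6 rose, and when any 1 library other than mC replicate 1 was left out, 12 or 13 and 6 rose. HSP26, a small heat shock protein, stood at 158, 176 and 172 FPKM in wild type and 359, 452 and 498 FPKM in mC and rose by 1.35 ± 0.12 (adjusted p = 0.000892). Its 3 mC values spread more widely than its wild type values, but the groups did not overlap. DDR2, a stress gene with 3 stress response elements in its window, stood at 304, 303 and 299 FPKM in wild type and 718, 770.5 and 767 FPKM in mC, a change of 1.31 ± 0.04 (adjusted p = 2.23e-05). SOL4, a 6-phosphogluconolactonase, DCS2, a regulator of mRNA decapping, and PAI3, an inhibitor of proteinase A, rose by 0.91 ± 0.08, 0.86 ± 0.10 and 0.78 ± 0.09. HSP12, a membrane-associated stress protein, rose by 0.65 ± 0.10, and UBI4, the polyubiquitin gene, by 0.49 ± 0.06. TSL1, a subunit of trehalose synthase, rose by 0.56 ± 0.10, and HSP30, a plasma membrane heat shock protein, by 0.50 ± 0.15. HSP30 was close to the threshold (adjusted p = 0.0462), did not pass after upper-quartile scaling and was called in 1 of the 6 fits that left out a library.

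Reserve carbohydrate genes changed with them. Of 17 trehalose and glycogen genes 12 rose and none fell (median 0.29). After upper-quartile scaling 9 rose, and 9 or 11 when any 1 library other than mC replicate 1 was left out. PGM2, phosphoglucomutase, rose by 1.02 ± 0.09, from 51.8, 61.8 and 58.5 FPKM to 104, 121 and 127 FPKM. GPH1, glycogen phosphorylase, rose by 0.98 ± 0.12 and GDB1, the glycogen debranching enzyme, by 0.55 ± 0.09. In hexose transport 9 of 20 rose and 1 fell (median 0.27). The count of higher members was 8 after upper-quartile scaling and 6 to 9 when each library was left out in turn. HXT4 stood at 154, 171 and 167 FPKM in wild type and 271, 261 and 273 FPKM in mC, a change of 0.71 ± 0.05 (adjusted p = 0.000497). HXT6, which is almost identical in sequence to HXT7, rose by 0.60 ± 0.11 from a low level of 4.39, 4.59 and 3.63 FPKM. Glycolysis and fermentation genes were mixed, with 7 of 25 higher and 3 lower, against 23.1% and 6.09% of all genes. After upper-quartile scaling 5 were higher and 5 lower. GLK1, glucokinase, rose by 0.60 ± 0.05 and TDH1, a glyceraldehyde-3-phosphate dehydrogenase, by 0.44 ± 0.06. GLK1 overlaps another annotated gene, and the libraries are not stated to keep strand. Of 46 respiration and TCA cycle genes 16 rose and 2 fell (median 0.13), with the succinate dehydrogenase subunits SDH1 and SDH4 at 0.51 ± 0.04 and 0.33 ± 0.06. That count was 31 without mC replicate 1, 7 to 11 when any other single library was left out, and 8 after upper-quartile scaling.

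The 2 largest increases among genes of at least 10 FPKM were in neither chaperone list nor in the stress list. EGO4, a small protein and paralog of EGO2, stood at 32.0, 37.9 and 39.4 FPKM in wild type and 152, 186 and 211 FPKM in mC. The groups were far apart, with a change of 2.29 ± 0.13 (adjusted p = 0.000218). OPT2, an oligopeptide transporter, stood at 14.4, 14.9 and 17.1 FPKM in wild type and 52.6, 56.8 and 57.0 FPKM in mC, a change of 1.78 ± 0.07 (adjusted p = 4.77e-05). FMP16, a mitochondrial protein, rose by 1.07 ± 0.17, from 13.7, 16.4 and 21.6 FPKM to 30.5, 41.2 and 39.2 FPKM. The uncharacterised YPL278C rose by 1.02 ± 0.17, from 7.54 ± 1.86 FPKM to 16.0 ± 1.9 FPKM (mean ± SD, n = 3).

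**Figure D3:**
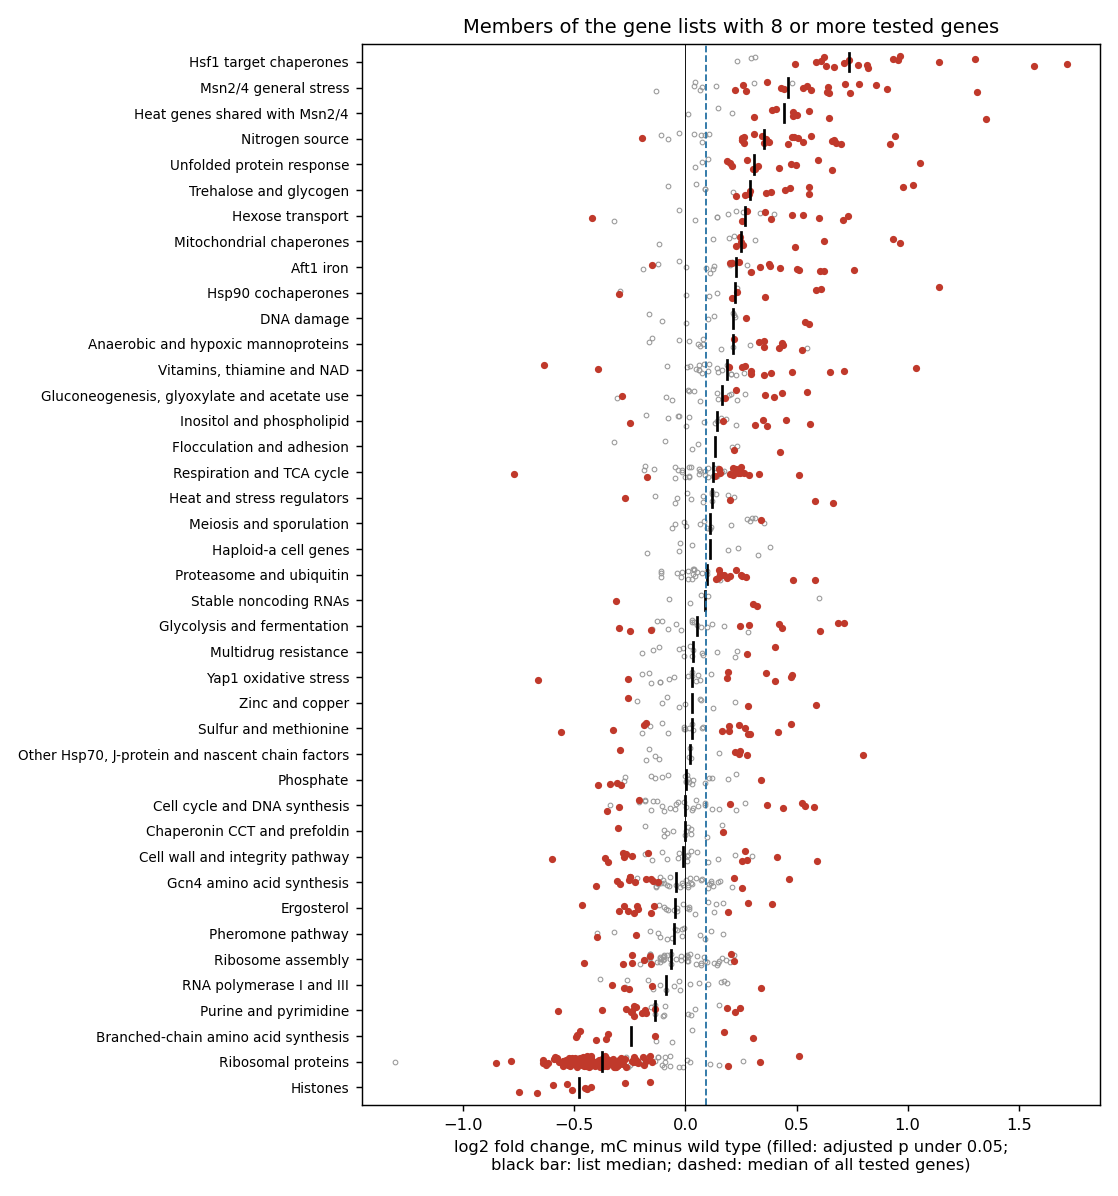
Log2 fold change of mC minus wild type for each tested member of the gene lists with 8 or more tested genes, filled red where the adjusted p was under 0.05. Black bars are list medians, from 0.74 for Hsf1 target chaperones to -0.48 for histones, and the dashed line is the median of all 6399 genes, 0.09.

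Genes for the use of nitrogen sources rose in mC. Of 33 members 23 were higher and 1 lower, with a median of 0.35. AGP1, a broad-range amino acid permease, stood at 100.4, 108 and 103 FPKM in wild type and 208, 193 and 200.1 FPKM in mC, a change of 0.94 ± 0.05 (adjusted p = 0.000145). GAP1, the general amino acid permease, stood at 32.4, 33.5 and 31.5 FPKM in wild type and 69.0, 56.1 and 62.5 FPKM in mC and rose by 0.92 ± 0.08. MEP2, an ammonium permease and sensor, rose by 0.70 ± 0.05 and DAL1, allantoinase, by 0.68 ± 0.10. In each of these 4 genes all mC libraries were above all wild type libraries. The count of higher members was 17 to 22 when each library was left out in turn.

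Iron genes of the Aft1 regulon rose in part, with 13 of 26 higher and 1 lower (median 0.23). ARN1, a siderophore transporter, stood at 194, 216 and 217 FPKM in wild type and 401, 328 and 336 FPKM in mC and rose by 0.76 ± 0.09. Its highest mC value was in replicate 1. FIT2 and FIT3, cell wall mannoproteins that retain siderophore iron, rose by 0.61 ± 0.07 and 0.63 ± 0.10 and were also highest in mC replicate 1. ARN2, another siderophore transporter, rose by 0.51 ± 0.08. The iron count was 8 without wild type replicate 1. Of 33 vitamin, thiamine and NAD genes 11 rose and 2 fell (median 0.19), among them THI7, a thiamine transporter, at 0.65 ± 0.08, and BIO2, biotin synthase, which fell to a change of -0.64 ± 0.06. The 11 that rose in this list became 6 or 7 when any 1 library other than mC replicate 1 was left out, and 7 after upper-quartile scaling.

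Ribosomal protein genes, among the most abundant messages, were lower in mC. Of 138 tested, 106 fell and 3 rose, against a background of 6.09% of all genes lower, and the median was -0.37 (-0.45 after upper-quartile scaling). Their summed level was 356296 to 385534 FPKM in the wild type libraries and 256716, 307783 and 318551 FPKM in mC. Among members of at least 10 FPKM, the named ones with the largest changes were RPL28 at -0.85 ± 0.12, RPL42B at -0.64 ± 0.15, RPL9A at -0.64 ± 0.13, RPS31 at -0.63 ± 0.13 and RPL38 at -0.62 ± 0.14. RPL28 stood at 66.4, 63.3 and 76.9 FPKM in wild type and 31.9, 39.0 and 42.6 FPKM in mC, far below the others named. The reason for its low level was not tested. RPS31, which encodes a fusion of ubiquitin and a ribosomal protein, stood at 6471, 6062 and 6705 FPKM in wild type and 3338, 4482 and 4784 FPKM in mC. The groups did not overlap, but mC replicate 1 lay well below the other mC libraries. Most ribosomal proteins are encoded by pairs of near-identical genes, so single members such as RPL42B and RPL9A are uncertain. RPL36B, at 2.88, 2.73 and 1.82 FPKM in wild type and 0.961, 1.12 and 0.925 FPKM in mC, rests on few reads.

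The size of this decrease differed between mC libraries, and the number of calls turned on single libraries. The median of ribosomal protein genes against the wild type mean was -0.57 in mC replicate 1, -0.29 in replicate 2 and -0.26 in replicate 3. Without wild type replicate 1 only 5 members were called lower, without wild type replicate 3 only 11, and 62 to 112 when any other library was left out. The list median stayed between -0.44 and -0.28 in these 6 fits. The calls of RPL42B, RPL9A, RPS31 and RPL38 were lost without wild type replicate 1 and without wild type replicate 3, and that of RPL28 was kept in all 6.

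All 10 histone genes fell, with a median of -0.48. HTA2, which encodes histone H2A, stood at 1474, 1282 and 1473 FPKM in wild type and 688, 879 and 973 FPKM in mC, a change of -0.75 ± 0.13 (adjusted p = 0.00771). HTA1, the other H2A gene, changed by -0.67 ± 0.12, and HHF1 and HHF2, which both encode histone H4, by -0.60 ± 0.10 and -0.53 ± 0.10. In all 4 genes the lowest value was in mC replicate 1. Leaving out each library in turn left 7 to 10 of the 10 called. Histone medians by mC library were -0.65, -0.45 and -0.38.

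Ribosomal protein and histone genes are short, with median lengths of 771 and 399 bp, against 1536 bp for the Hsf1 target chaperones. These are lengths of annotated genes, which may include introns, so the ribosomal protein messages may be shorter. Gene length moved with the difference between mC and wild type. Over 5 classes of tested genes by length, the median change was 0.04 in the shortest class (51 to 633 bp) and 0.14 in the longest (2106 to 14733 bp). In mC replicate 1 the shortest class lay at -0.06, against 0.06 and 0.11 in replicates 2 and 3. In each mC library the medians of both lists were below that of the class holding their median annotated length. The classes are broad and a length without introns could fall in another class. The part of gene length in the decreases was not tested.

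**Figure D4:**
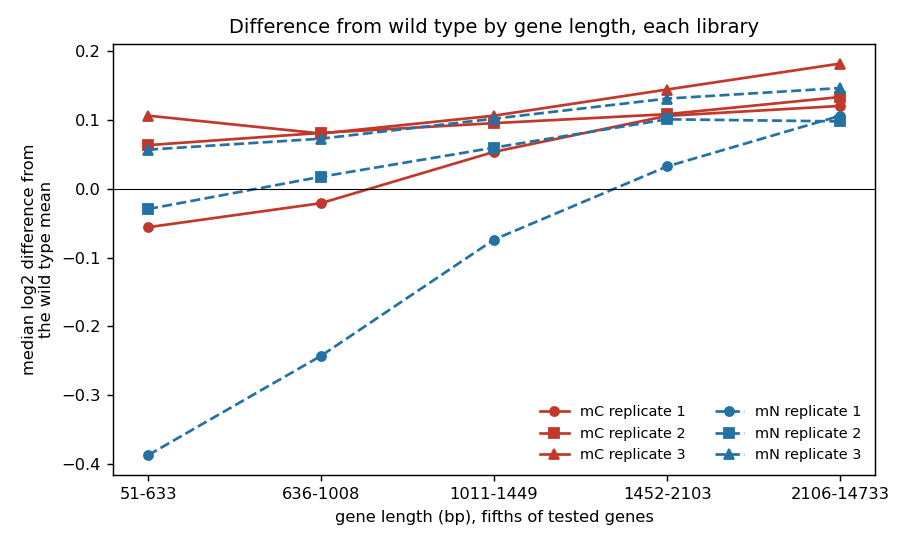
Median log2 difference of each mC library (solid) and mN library (dashed) from the wild type mean over 5 classes of near-equal numbers of genes by length. The mC libraries lie between -0.06 and 0.18; mN replicate 1 falls to -0.39 in the shortest class.

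Of 55 ribosome assembly genes 7 fell and 2 rose, and with upper-quartile scaling 14 fell and none rose. NOP10 and GAR1, which act in RNA pseudouridylation, fell to changes of -0.46 ± 0.11 and -0.28 ± 0.04. Of 21 RNA polymerase I and III genes 4 fell and 1 rose, with the shared subunit RPC10 at -0.33 ± 0.08, and after upper-quartile scaling 8 fell and none rose. RPA14, a polymerase I subunit, rose by 0.34 ± 0.08 but did not pass after upper-quartile scaling, and it overlaps another annotated gene. When each library was left out in turn, 1 to 12 ribosome assembly genes and 0 to 6 polymerase genes were called lower, the lowest counts without wild type replicate 1 and, for ribosome assembly, also without wild type replicate 3. NOP10, RPC10 and RPA14 were each called in 3 of these 6 fits.

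Amino acid and nucleotide synthesis had more genes lower than higher. Of 12 branched-chain genes 7 fell and 2 rose (median -0.24). LEU1, isopropylmalate isomerase, stood at 388, 399 and 409 FPKM in wild type and 276, 289 and 286 FPKM in mC, a change of -0.49 ± 0.04 (adjusted p = 0.000889). LEU9, an isopropylmalate synthase, changed by -0.49 ± 0.04, OAC1, a mitochondrial carrier for oxaloacetate and isopropylmalate, by -0.47 ± 0.11, and ILV3, a dehydratase of the pathway, by -0.40 ± 0.04. Of 47 genes of Gcn4-controlled amino acid synthesis 11 fell and 3 rose (median -0.04). HIS1, the first enzyme of histidine synthesis, stood at 509, 472 and 499 FPKM in wild type and 355, 384 and 379 FPKM in mC. It changed by -0.40 ± 0.05, a direction opposite to that of HIS3. GCN4, the transcription factor itself, is listed under heat and stress regulators and changed by -0.27 ± 0.05. Of the 17 genes in that list 3 rose, HSF1, RPN4 and HAC1, and 1 fell (median 0.12). When any 1 library other than mC replicate 1 was left out, 1 or 2 of them rose. Of 25 purine and pyrimidine genes 12 fell and 3 rose (median -0.14), led by URA1, dihydroorotate dehydrogenase, which went from 821, 744 and 747 FPKM to 495, 532 and 523 FPKM, a change of -0.58 ± 0.06. OAC1 was called in 3 and GCN4 in 4 of the 6 fits that left out a library. Without each library other than mC replicate 1, the purine and pyrimidine list had 3 to 6 genes lower and the Gcn4 list 4 to 8.

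Ergosterol synthesis had 9 of 28 genes lower and 3 higher, with ERG5, a desaturase, at -0.46 ± 0.04 and IDI1, isopentenyl diphosphate isomerase, at -0.30 ± 0.08. Cell wall genes were divided, with 5 of 28 higher and 8 lower, and 2 higher and 9 lower after upper-quartile scaling. CWP1, a mannoprotein, changed by -0.60 ± 0.05 and UTR2, a chitin transglycosylase, by -0.36 ± 0.05, while PIR3, a wall protein linked to glucan, rose by 0.59 ± 0.07 and GSC2, a glucan synthase subunit, by 0.41 ± 0.06. The genes called lower were 3 to 6 in the ergosterol list and 4 to 7 in the cell wall list when any 1 library other than mC replicate 1 was left out, and IDI1 was called in 3 of the 6 fits. Among single genes with the largest decreases, CYC1, cytochrome c isoform 1, stood at 99.99, 91.4 and 102 FPKM in wild type and 44.3, 58.8 and 70.2 FPKM in mC, a change of -0.77 ± 0.15. Its call was lost without wild type replicate 1. GPX2, a glutathione peroxidase, changed by -0.66 ± 0.10, REE1, a cytoplasmic protein linked to enolase regulation, by -0.65 ± 0.06, CYB5, cytochrome b5, by -0.63 ± 0.10, and the uncharacterised YDL241W by -0.78 ± 0.09. MET6, methionine synthase, changed by -0.56 ± 0.05.

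Of 4 haploid alpha cell genes tested 2 fell in mC, STE3, the receptor for a-factor, at -0.40 ± 0.06 and SAG1, alpha-agglutinin, at -0.48 ± 0.12. SAG1 spread from 707 to 1004 FPKM within wild type, and its call was lost without mC replicates 2 or 3 and without wild type replicate 2. None of the 8 genes listed for haploid a cells passed the test in limma, and 2 had an unadjusted p under 0.05. These were MFA1, an a-factor gene, at 0.33 ± 0.13 and BAR1, which degrades alpha factor, at 0.24 ± 0.08.

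The amino-terminal site mutant gave the direct test of what distinguished mC. Between mC and mN, 5 of 6399 genes (0.0781%) passed, 4 higher (0.0625%) and 1 lower (0.0156%) in mC, and 449 had an unadjusted p under 0.05. HSF1 stood at 261, 230.4 and 247 FPKM in mC and 86.1, 109.7 and 106 in mN, on opposite sides of wild type, and differed by 1.29 ± 0.12 (adjusted p = 0.027). STI1 stood at 386, 386 and 383 FPKM in mC and 189, 204 and 194 in mN, a difference of 0.98 ± 0.07 (adjusted p = 0.0181). The mN values of STI1 were also above all 3 wild type values. PIR3 was lower in mC, at 373, 339 and 315 FPKM against 908, 804 and 809.9 in mN, a difference of -1.29 ± 0.10 (adjusted p = 0.0181). The other calls were the uncharacterised genes YEL073C, at 11.7, 14.5 and 11.8 FPKM in mC and 3.63, 4.37 and 3.88 in mN, and YHL048C-A, at 2.88, 2.87 and 2.77 and 0.623, 0.7 and 0.716. The levels of YHL048C-A rest on few reads.

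The outcome of this test turned on each of the 6 libraries. Short genes were low in mN replicate 1, and whether this affected the calls was not tested. Without mN replicate 1, 52 genes (0.813%) were called, 20 higher (0.313%) and 32 lower (0.5%) in mC, the 5 above among them. When any other single library of the 6 was left out, none was called in limma, with 247 to 595 genes at an unadjusted p under 0.05. In the fit without mN replicate 1, 9 of the 21 Hsf1 target chaperones were higher in mC and none lower. They were HSP82 (difference 0.99), STI1 (0.95), HSC82 (0.86), SSA2 (0.68), YDJ1 (0.67), HSP60 (0.65), FES1 (0.58), SSA1 (0.53) and SSE1 (0.50). HIS3, at 612, 631 and 592 FPKM in mC and 181, 318 and 296 in mN, differed by 0.99. Lower in mC were 8 of 33 nitrogen source genes, among them AGP1 (-0.53), GAP1 (-0.68) and MEP2 (-0.80), and also OPT2 (-0.79), HXT4 (-0.73) and PAU5 (-0.78), a seripauperin gene.

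Both mutants were set against the same 3 wild type libraries, so their changes share those controls and are given side by side. YDJ1 had a change of 0.63 in mC and -0.08 in mN, HSP60 0.62 and -0.05, HSC82 0.71 and 0.05, and STI1 1.14 and 0.16. Other chaperones of the list were above wild type in both, with HSP104 at 0.74 in mC and 0.54 in mN and HSP78 at 0.93 and 0.74. BTN2 had 1.30 and 0.63 and SSA1 0.82 and 0.41, while AHA1 had 0.59 and -0.10. HSP82 had 1.72 in mC and 0.89 in mN. SSA4 had the larger value in mN, 1.57 in mC and 2.03 in mN, with 228, 254 and 221 FPKM in the mN libraries, all above the mC libraries, and the direct difference of -0.47 ± 0.09 did not pass (adjusted p = 0.212). DDR2 had 1.31 in mC and 1.71 in mN, OPT2 1.78 and 2.52, and HXT4 0.71 and 1.60. HTA2 had -0.75 in mC and -1.05 in mN. Summed ribosomal protein genes stood at 245516 to 298123 FPKM in mN, against 356296 to 385534 in wild type and 256716 to 318551 in mC. Summed histone genes stood at 8797 to 10994 FPKM in mN, 15660 to 16986 in wild type and 10061 to 12532 in mC. The median difference of mC minus mN was -0.01 for the unfolded protein response list and 0.05 for the Msn2/4 list. No member of these lists passed between mC and mN with all libraries. Of the genes named in this paragraph, only STI1 passed the direct test between mC and mN with all libraries of both groups.

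**Figure D5:**
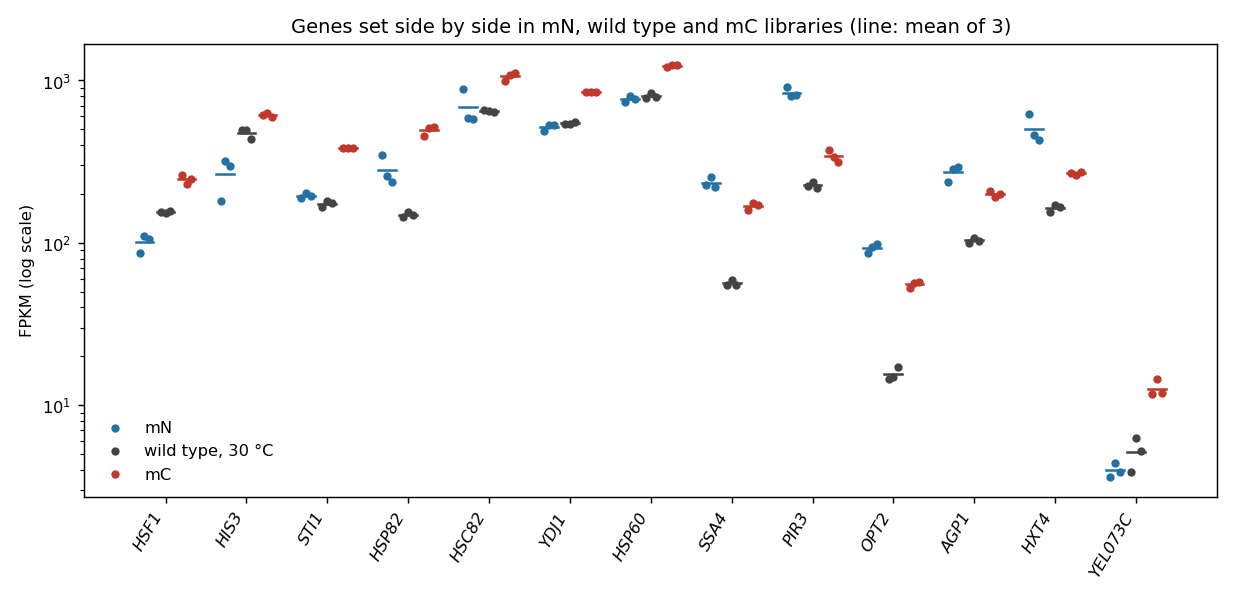
FPKM on a log scale of 13 genes in the mN (blue), wild type (grey) and mC (red) libraries, 1 point per library and a line at the mean of 3. HSF1 and HIS3 are highest in mC and lowest in mN, STI1, YDJ1 and HSP60 are raised in mC over both, and SSA4, PIR3, OPT2, AGP1 and HXT4 are highest in mN.

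Sequence elements of the kinds printed above were counted from 350 to 51 bases before the start codon of 6020 protein-coding genes, on both strands. The 3-unit heat shock element was found in 1.01% of all windows and in 13 of the 21 Hsf1 target chaperones (61.9%). A pair of inverted units was found in 22.8% of all windows and in 20 of the 21 (95.2%), the exception being MDJ1. The pair was no more common in genes called higher in mC (24.2%) than in those called lower (26.9%). It was found in 30.2% of genes called higher by at least 0.5 and in 32.6% of ribosomal protein genes. A stress response element was found in 7 of the 21 chaperones (33.3%). Of all 1427 genes called higher in mC with a window, 1.75% held the 3-unit element and 32.1% a stress response element, which 22.9% of all windows held. Of the 372 called lower, 1.61% and 15.1% held them, so the share with the 3-unit element was close in both directions. Of the 189 called higher by at least 0.5, 6.88% and 44.4% held them. Of the 26 Msn2/4 genes 23 (88.5%) held a stress response element and none the 3-unit heat shock element. EGO4 held 2 stress response elements and no pair of heat shock units in its window, and OPT2 held 1 pair and no stress response element. These letters are matches in the reference sequence, not measured binding sites.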

How the data were processed

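Messenger RNA was measured in 15 libraries. Per the labels' protocols, total RNA was isolated with hot phenol, mRNA was enriched on oligo(dT) and cDNA was primed with random hexamers, with no statement that strand was kept. The deposited values are FPKM, which the authors scaled by gene length and library depth. Tools listed in the submitters' processing notes are HTSeq 0.6.1, TopHat2 2.0.12 and Bowtie2 2.2.3. Not given in the sources used here are the annotation, the genome build, any filter and the choice of reads or fragments.

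Multiplied by gene length, the FPKM of 99.2 to 99.3% of single-exon genes were whole multiples of a unit particular to each library (within 0.01 read), which gave the read totals. FPKM are not counts, so no count test was run and the count branch of the planned design was not used. Values were taken as log2(FPKM + 1), which understates the changes of low genes, for genes at 1 FPKM or more in 3 or more libraries. The groups of each comparison, 6 libraries, were fitted alone in limma 3.58.1 (R 4.3.3) with a variance trend and 4 residual degrees of freedom before moderation. All tests were two-sided, with Benjamini-Hochberg adjustment over 6399 genes. The scripts were tested on simulated data with known changes. P-values measure the spread between these cultures. Whether that spread includes differences between clones is not known, because the labels do not say if replicates were separate clones. No batch, day or run is given in the labels.

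Gene symbols and lengths came from the RefSeq R64 annotation (6048 identifiers matched by systematic name and 31 by symbol), and so did the upstream sequences. The members and the 44 gene lists were chosen with earlier results of these data known. Lists overlap and are described by counts and medians, with no set test. Genes were named by rule. The rule took HSF1, the 15 highest and 15 lowest changes among called genes of at least 10 FPKM whose groups did not overlap, up to 4 called members of each list (where none was called, the 2 with the smallest p), the Hsf1 target chaperones, the selection markers, and genes called against both wild type and mN. Genes called only without mN replicate 1 were chosen after their values were seen. Alternatives were upper-quartile scaling (75th percentile), no variance trend, no filter, a filter at 10 FPKM, the replicate number as a block, a pseudocount of 0.1, fits on 13 or 15 libraries, and leaving out each library. Tables and plots were made with matplotlib 3.10.9, pandas 2.3.3, numpy 2.4.6 and Python 3.11.15.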

Additional observations from a re-analysis of the deposited data

Results flagged for a closer look

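Against the same wild type libraries, 5 genes had effects in mC that differed from those in mN by the direct test between the mutants (limma, adjusted p under 0.05). HSF1 was 1.29 higher in mC than in mN on the log2 scale (adjusted p = 0.027), with all 3 mC libraries above and all 3 mN libraries below wild type. STI1 was 0.98 higher (adjusted p = 0.0181). YEL073C was 1.46 higher (adjusted p = 0.0181), from 3.63, 4.37 and 3.88 FPKM in mN and 3.87, 6.3 and 5.22 FPKM in wild type to 11.7, 14.5 and 11.8 FPKM in mC. YHL048C-A was 1.19 higher (adjusted p = 0.0491), at levels under 3 FPKM in all 9 libraries. PIR3 differed by -1.295 (adjusted p = 0.0181), being higher than wild type in both mutants and highest in mN. None of the 5 calls was kept when any 1 of the mC libraries, mN replicate 2 or mN replicate 3 was left out, and all 5 were kept without mN replicate 1.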

How the results depend on the processing

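The count of 1866 genes called between mC and wild type was 1720 without the variance trend, 1835 with no filter, 1868 with the filter at 10 FPKM, 1850 with a pseudocount of 0.1 and 1364 with upper-quartile scaling. Leaving out each library gave 776 to 2217. With all 15 libraries in 1 fit, which pools the spread of the 2 libraries that go against their labels, 12 genes were called, and without these 2 (13 libraries) 945, 788 of them higher. Of 167 named called genes, 112 were called in all 6 fits with a library left out, and none changed direction under any alternative. By the rule that every same-numbered pair correlate over 0.1, the replicate number did not pair the samples: their deviations correlated at 0.04, 0.01 and 0.15 between mC and wild type, and at 0.13, 0.05 and 0.14 between mC and mN. With a replicate block 1741 genes were called. Between mC and mN, the 5 calls became 13 with upper-quartile scaling, 11 without the trend, 6 with no filter, 4 with the filter at 10 FPKM, 5 with a pseudocount of 0.1, 10 with 15 libraries and 66 with 13 (29 higher, 37 lower). With a replicate block 0 were called (615 at an unadjusted p under 0.05). Leaving out each library gave 0 to 52. The causes of these differences were not tested. At 18335488 reads or more, values near 1 FPKM rest on few reads, and a change in them was often not detectable.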

Other observations

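The counts of the further lists stand against a background of 23.1% of all genes called higher and 6.09% lower, and several of them depended on the scaling or on single libraries. Of 20 anaerobic and hypoxic mannoprotein genes 8 rose and none fell (median 0.22), with DAN1, a wall mannoprotein, at 0.53 ± 0.10, TIR4 at 0.44 ± 0.11 and PAU5 at 0.43 ± 0.06. After upper-quartile scaling 5 rose and 1 fell, and TIR4 did not pass (adjusted p = 0.0855 in limma). Of 11 DNA damage genes 3 rose and none fell (median 0.22), with HUG1, a ribonucleotide reductase inhibitor, at 0.56 ± 0.10, RNR3, a ribonucleotide reductase subunit, at 0.54 ± 0.07 and RAD54, a recombination protein, at 0.27 ± 0.06. RAD54 did not pass after upper-quartile scaling (adjusted p = 0.0608 in limma), and TIR4 and RAD54 were each called in 2 of the 6 fits that left out a library. Of 34 cell cycle and DNA synthesis genes 6 rose and 3 fell (median 0.00), and after upper-quartile scaling 4 rose and 8 fell. When each library was left out in turn, 3 to 7 rose and 0 to 4 fell. SWI5, a transcription factor of late mitosis, rose by 0.44 ± 0.09, and SIC1, a cyclin-dependent kinase inhibitor, by 0.52 ± 0.07. SWI5 was not called without wild type replicate 1. Of 19 inositol and phospholipid genes 6 rose and 1 fell, with OPI3, a methyltransferase of phosphatidylcholine synthesis, at 0.56 ± 0.05 and INO1, inositol phosphate synthase, at 0.37 ± 0.08, called in 3 of the 6 fits. Of 20 genes of gluconeogenesis, glyoxylate and acetate use 6 rose and 1 fell, with YAT1, a carnitine acetyltransferase, at 0.55 ± 0.10.

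Phosphate genes had 1 of 24 higher and 4 lower (median 0.00), and 6 lower after upper-quartile scaling. PHO3, an acid phosphatase, changed by -0.39 ± 0.04, and PHO11 and PHO12, near-identical acid phosphatase genes, by -0.34 ± 0.07 and -0.31 ± 0.05. PHO4, the transcription factor of this regulon, rose by 0.34 ± 0.08 and did not pass after upper-quartile scaling. PHO4 and PHO11 were each called in 4 of the 6 fits that left out a library. Of 22 Yap1 oxidative stress genes 6 rose and 2 fell, with TSA2, a peroxiredoxin, at 0.40 ± 0.05 and SOD1, superoxide dismutase, at -0.26 ± 0.06, called in 2 of the 6 fits. After upper-quartile scaling 4 rose and 3 fell. Of 25 sulfur and methionine genes 9 rose and 4 fell (median 0.03), and after upper-quartile scaling 3 rose and 5 fell. Of 12 zinc and copper genes 2 rose and 1 fell, with ZAP1, the zinc-responsive activator, at 0.59 ± 0.08, and after upper-quartile scaling 1 rose and 3 fell. Of 16 multidrug resistance genes 2 rose and none fell, of 8 flocculation genes 2 and none, of 16 meiosis and sporulation genes 1 and none, and of 18 pheromone pathway genes none rose and 2 fell. After upper-quartile scaling, multidrug resistance had none higher and 2 lower, flocculation and meiosis had no calls, and the pheromone list had 3 lower. The 2 flocculation calls, FLO1 and FLO5, were made in 0 and 1 of the 6 fits that left out a library. FAR1, which arrests the cell cycle on pheromone, changed by -0.40 ± 0.12 and STE4, a G protein subunit, by -0.22 ± 0.05. FAR1 was called in 1 and STE4 in 2 of the 6 fits, and without mC replicate 2 no pheromone gene was called lower.

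RPL35A, chosen after its values were seen, had the lowest fitted change of the ribosomal protein genes and did not pass, at 1712, 466 and 2305 FPKM in wild type and 838, 367 and 395 FPKM in mC. It varied widely within both groups. YEL073C and 2 further genes called higher in mC than in mN when mN replicate 1 was left out, YEL074W and YEL077C, were also noticed after their values were seen. YEL074W stood at 6.44, 6.99 and 6.2 FPKM in mC, 4.18, 3.15 and 2.32 in wild type and 2.6, 1.25 and 2.42 in mN. YEL077C stood at 6.81, 7.56 and 7.95 FPKM in mC, 3.53, 4.07 and 3.42 in wild type and 1.64, 2.45 and 2.6 in mN.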
